A study of Mus musculus with 12 samples.

Results

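The comparison described here is between irradiated tumors that received the antibody 1D11 and irradiated tumors that received the antibody 13C4. 1D11 neutralizes all TGF-beta isoforms, and 13C4 serves as the matched control antibody. By their labels, 3 tumors belong to each of these groups, 6 of the 12 tumors in the series, and the antibody difference was measured in them for 12735 genes. All 12 were LLC tumors, grown from Lewis lung carcinoma cells, a mouse lung cancer line, as subcutaneous flank tumors in C57BL/6 mice, all female and 6 to 8 weeks old. Treatment was assigned at random at tumor volumes of 60 to 80 mm3, and whole tumors were taken at day 19. The 4 groups of 3 tumors received 13C4 alone (control), 1D11 alone, 13C4 with radiation, or 1D11 with radiation. Every tumor therefore came from an animal given an antibody, and none was untreated. One set of labels gives the radiation as 5 fractions of 6 Gy and another as 2 Gy. The samples are called cells in their titles and tumors in their source names, and the RNA is treated here as that of whole tumors with host tissue. No marker list of LLC cells was used, so the cell label itself was not checked. The series title names resistance to radiotherapy through TGF-beta, so the comparison asks what neutralizing TGF-beta changes in an irradiated tumor.

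TGF-beta ligands are secreted in a latent complex and released from it by integrins, proteases or reactive oxygen, the last of which links their activation to ionizing radiation. Active ligand brings together the type II and type I receptors, which phosphorylate SMAD2 and SMAD3, and these enter the nucleus with SMAD4. The pathway drives matrix production by fibroblasts, restrains lymphocytes and macrophages, and switches on its own inhibitors, such as Smad7 and Pmepa1.

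No gene passed the test between the irradiated groups. With limma's moderated test and Benjamini-Hochberg adjustment over 12735 genes, 0 genes (0%) had an adjusted p under 0.05, and the smallest adjusted p was 0.84. At an unadjusted p under 0.05 there were 688 genes (5.40%), 349 of them higher (2.74%) and 339 lower (2.66%) in the 1D11-irradiated tumors. The estimate was higher for 50.8% of genes and lower for 49.2%. An even spread of p-values would put 637 genes into each of 20 bins. The same antibody difference without radiation, 1D11 alone against control, shares no tumor with it and had 1800 genes (14.1%) at an unadjusted p under 0.05, with 9.01% higher and 5.12% lower, and 2 (0.0157%) at an adjusted p under 0.05. Those 2 were Cadm1, a cell adhesion molecule, at a log2 difference of 0.56 ± 0.06 (SE, n = 3 tumors per group; limma adjusted p = 0.0366), and Ccl6, a chemokine of myeloid cells, at 0.87 ± 0.11 (limma adjusted p = 0.0474). In irradiated tumors the estimates for these genes, named after their values were seen, were 0.30 ± 0.06 and 0.25 ± 0.11 (limma adjusted p = 0.84 for both).

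**Figure D1:**
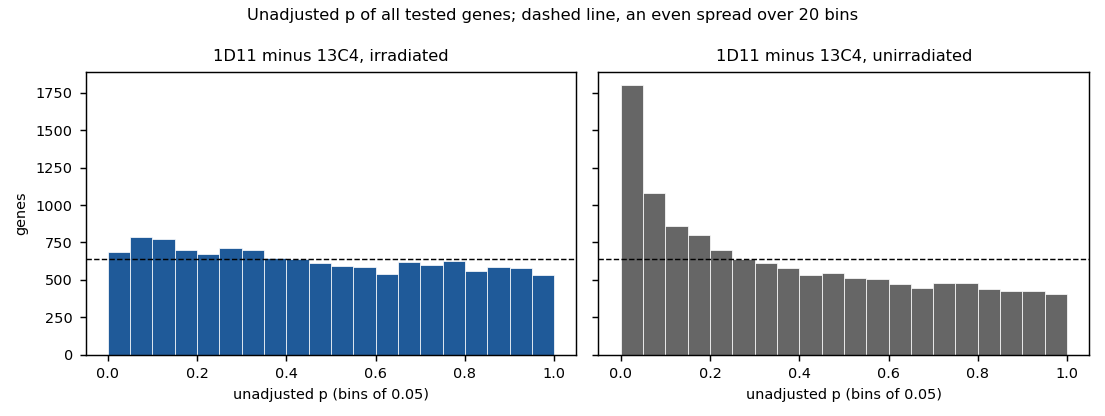
Number of tested genes (y axis) by unadjusted p in 20 bins of width 0.05 (x axis) for 1D11 against 13C4 in irradiated tumors (left) and in unirradiated tumors (right), with the dashed line at 637 genes. The lowest bin holds 688 genes with radiation and 1800 without it.

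The precision behind these counts was as follows. Values are log2 of the deposited array intensity, so a difference of 1 is 2-fold, and the SE of a difference had a median of 0.098, which gives a 95% interval of 0.215 to either side. For 12402 genes (97.4%) the interval lay within 2-fold in both directions, and for the other 333 it did not. The median difference over all genes was 0.0027, and the median size of a difference was 0.0768, against 0.102 without radiation. Replicates are separate samples by their labels, which do not state that each came from its own mouse, so p-values measure the spread between these samples.

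RNA of skeletal muscle, a neighbour of the flank tumor, varied between the tumors and is given here before the gene values. The list of 20 skeletal muscle genes had a score, the mean of its members' log2 values after centring over 12 arrays, of 1.91 in 13C4-irradiated replicate 3. The others of that group were at -0.13 and 0.47, and the 1D11-irradiated tumors at -0.79, 0.29 and -1.16. Control replicate 1 also stood high, at 1.32. Estimates were lower with 1D11 for 20 of the 20 muscle genes, with a median of -1.45, or -0.91 without 13C4-irradiated replicate 3. An unadjusted p under 0.05 was found for 5 of them, against 2.66% of all genes. That count was 0 without 13C4-irradiated replicate 3 or 1D11-irradiated replicate 3, 1 without 1D11-irradiated replicate 1, 3 without 13C4-irradiated replicate 2, and 13 without 13C4-irradiated replicate 1 or 1D11-irradiated replicate 2. Of 47 genes (0.369%) that differed by over 2-fold, 12 higher and 35 lower, 14 of the lower were in the muscle list. Others of the lower ones are also genes of muscle fibres, among them Neb, Mybpc2, Myot, Klhl41, Smpx, Mybpc1, Trdn and Ryr1. Counts within the list therefore understate the muscle genes. The genes over 2-fold numbered 37 without 13C4-irradiated replicate 3, 23 lower and 14 higher, with 8 in the muscle list. The LLC tumors also carried adipocyte genes, whose 6 tested members were all lower, with a median of -0.62. Its scores were -0.28 to 0.45 with 13C4 and -0.75 to 0.03 with 1D11. Car3, carbonic anhydrase of fat and muscle, was at 10.61, 11.99 and 12.06 with 13C4 and 9.90, 11.04 and 8.90 with 1D11. Differences by its further probe sets were -1.51, 0.04 and 0.1. When the muscle score was a covariate, the estimates of 52 of the 117 named genes changed by over 1.5 times. Those values are given below for part of these genes, so a gene without one may also have moved. The covariate was fitted over all 12 arrays, unirradiated ones included. Its values therefore also depend on control replicate 1, at 1.32 against -0.77 and -1.04 in its group. How far they do was not tested. With the covariate Car3 was at -0.59. Among TGF-beta pathway genes described below, Tgfb1 was at -0.24, Tgfb3 at 0.33, Tgfbr1 at 0.23, Smad7 at -0.19, Itgb8 at 0.80 and Nrros at -0.17. The part of fat in the results that follow was not tested.

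No gene of the TGF-beta pathway itself passed adjustment between the irradiated groups. Of 49 pathway genes tested, 26 had a higher and 23 a lower estimate with 1D11. An unadjusted p under 0.05 was found for 5 (10.2%, against 5.40% of all genes), and 43 (87.8%, against 97.4%) had a 95% interval within 2-fold in both directions.

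Among the ligands, Tgfb1 was at 7.51, 7.17 and 7.18 in the 13C4-irradiated tumors and at 7.22, 7.14 and 7.18 in the 1D11-irradiated ones. The groups overlapped, with a difference of -0.11 ± 0.11 (95% interval -0.36 to 0.14). Tgfb2 differed by -0.09 ± 0.23 and Tgfb3 by 0.05 ± 0.20, and both groups overlapped for each. 1D11 acts on the protein, and none of these values measures free ligand.

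Among 9 genes that hold TGF-beta latent or release it, 5 were higher and 4 lower. Itgb8, the integrin subunit that frees TGF-beta from its latent complex, was at 5.33, 5.32 and 5.74 with 13C4 and 6.26, 6.11 and 5.55 with 1D11. Its groups overlapped in 1 tumor of each, and its difference was 0.51 ± 0.22 (unadjusted p = 0.0412). Nrros, which tethers latent TGF-beta on macrophages and microglia, was at 8.80, 9.02 and 8.95 with 13C4 and at 8.63, 8.66 and 8.69 with 1D11. All 3 of its 1D11 values lay below all 3 of its 13C4 values, with a difference of -0.27 ± 0.12 (unadjusted p = 0.0428). Without radiation the Nrros estimate had the opposite sign, 0.56 ± 0.12, and the difference of differences was -0.82 ± 0.16 (limma adjusted p = 0.281). Thbs1, thrombospondin, an activator of latent TGF-beta, differed by 0.44 ± 0.39 (0.02 when the muscle score was a covariate), and Ltbp4, a latent TGF-beta binding protein, by -0.14 ± 0.14.

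Of 5 receptors, 4 had a higher estimate, or 2 without 1D11-irradiated replicate 2. Tgfbr3, the co-receptor betaglycan, was at 12.23, 12.38 and 12.37 with 13C4 and at 12.53, 12.72 and 12.56 with 1D11. The groups did not overlap, and the difference of 0.28 ± 0.11 (unadjusted p = 0.0258) was close to the 0.27 ± 0.11 measured without radiation. The signalling receptors Tgfbr1 and Tgfbr2 differed by 0.07 ± 0.12 and 0.15 ± 0.10, and Eng, the endothelial co-receptor endoglin, by -0.11 ± 0.10. All 5 SMAD genes tested had estimates between 0.002 and 0.16, and 2 of the 5 were above 0 when the muscle score was a covariate.

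Among 8 feedback inhibitors, Pmepa1, which takes SMADs away from the receptor, had the lowest estimate. Its values were 7.50, 7.36 and 7.72 with 13C4 and 6.33, 7.37 and 6.28 with 1D11. Replicate 2 of the 1D11-irradiated tumors reached the 13C4 range and the others were well under it. The difference was -0.87 ± 0.28 (95% interval -1.48 to -0.26, unadjusted p = 0.00936), 1.83-fold lower, and it was -0.57 ± 0.28 without radiation. With the muscle score as a covariate it was -0.47, and 2 further Pmepa1 probe sets gave -0.43 and -0.15. Smad7, the inhibitory SMAD, differed by -0.11 ± 0.10, Ski, a SMAD co-repressor, by 0.15 ± 0.10, and Bambi, a decoy receptor, by 0.07 ± 0.09. Second probe sets gave 0.03 for Smad7 and -0.14 for Ski.

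Among 24 target genes, 9 had a higher and 15 a lower estimate, with a median of -0.03 against 0.0027 over all genes. The split was 14 higher and 10 lower without 13C4-irradiated replicate 1 (median 0.06), and 13 higher and 11 lower without 1D11-irradiated replicate 3. Timp1, an inhibitor of matrix proteases, was at 11.13, 10.82 and 10.71 with 13C4 and 10.68, 10.60 and 10.43 with 1D11. The groups lay apart by a narrow gap, with a difference of -0.32 ± 0.12 (unadjusted p = 0.0257). Igfbp3, which binds insulin-like growth factors, was at 9.83, 9.39 and 9.55 with 13C4 and at 10.09, 10.74 and 10.56 with 1D11, also without overlap. Its difference was 0.87 ± 0.54, with an interval from -0.31 to 2.05, from an error that is estimated over all 4 groups, and it was 0.17 when the muscle score was a covariate. Id3, a transcription factor inhibitor, differed by 0.34 ± 0.15.

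**Figure D2:**
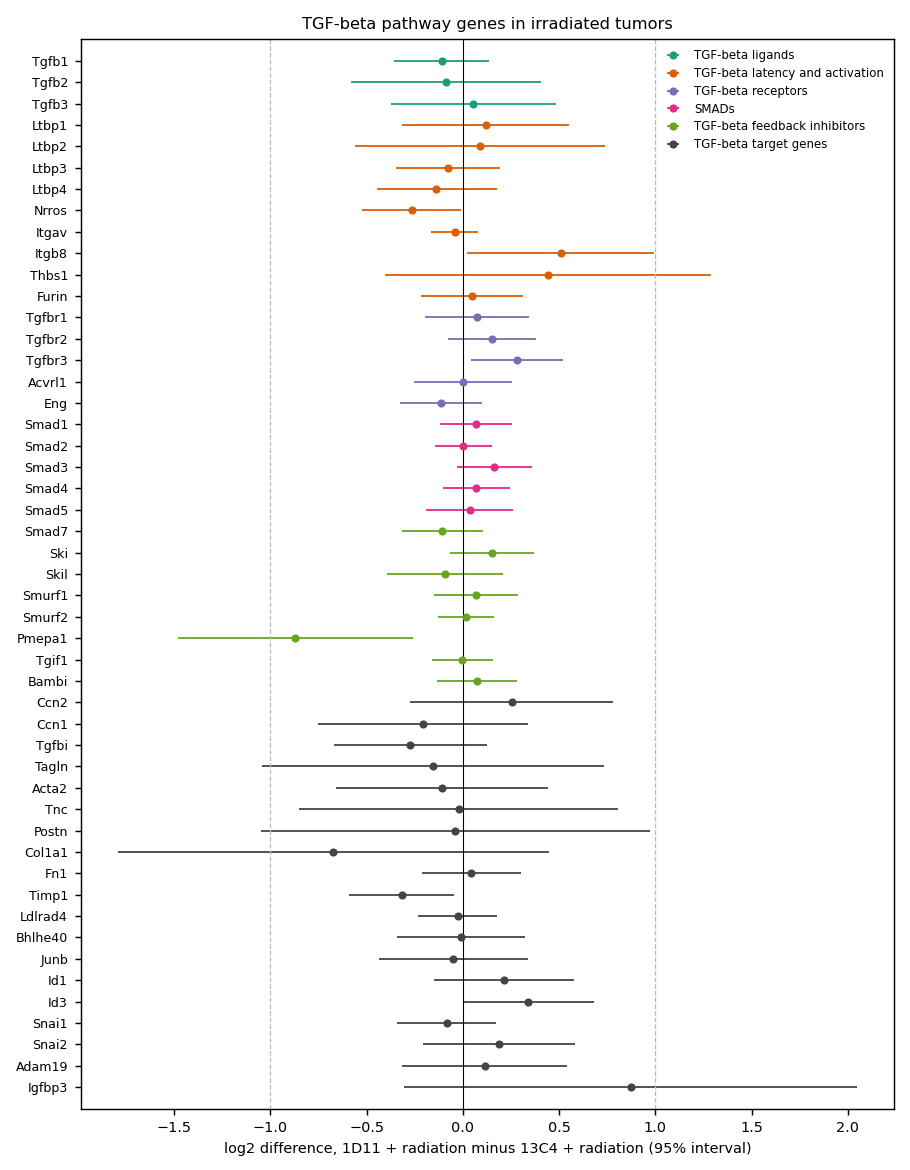
Log2 difference between 1D11-irradiated and 13C4-irradiated tumors (x axis; points, estimates; bars, 95% intervals; dashed lines, 2-fold) for the 49 tested TGF-beta pathway genes, colored by role. The estimates of 26 genes lie above 0 and of 23 below it, and 43 intervals lie between the dashed lines.

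The genes with the lowest unadjusted p among those differing by at least 0.5 are given as values, since none passed adjustment. All had a limma adjusted p of 0.84. Because they were ranked on these same 6 tumors, non-overlap is part of how they were found. Groups did not overlap for 924 higher (7.26%) and 770 lower (6.05%) of all tested genes.

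Frzb, a secreted inhibitor of Wnt ligands, had the lowest unadjusted p of the 10 higher genes. It was at 5.88, 6.03 and 6.03 in the 13C4-irradiated tumors and at 6.71, 6.91 and 6.74 in the 1D11-irradiated ones. The gap between groups was wider than the spread within either, with a difference of 0.81 ± 0.15 (95% interval 0.47 to 1.15), 1.75-fold. Without radiation it was -0.40 ± 0.15. A second Frzb probe set gave 0.26 in irradiated tumors.

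Ppbp, the platelet chemokine that attracts neutrophils, was at 9.55, 8.53 and 7.84 with 13C4 and 10.20, 10.94 and 9.83 with 1D11. The 13C4 tumors were spread over a wider range than the gap to the 1D11 tumors, and the difference was 1.69 ± 0.40 (0.80 to 2.57), 3.22-fold. It was 1.29 without 13C4-irradiated replicate 3. Nox4, an NADPH oxidase that makes hydrogen peroxide, was at 6.57, 6.33 and 6.54 with 13C4 and 7.43, 7.43 and 6.71 with 1D11. Replicate 3 of the 1D11 tumors was near the 13C4 range, the difference was 0.71 ± 0.17, and a second probe set of Nox4 gave -0.01. Mpdz, a scaffold protein of cell junctions, differed by 0.51 ± 0.10 with radiation and 0.47 ± 0.10 without it, and its 3 further probe sets gave 0.06, 0.16 and 0.27 with radiation.

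The others of the 10 ranged from 0.51 to 1.38. They were Cyp2f2, a cytochrome P450 of lung airway cells (1.27 ± 0.30), Abcg2, a drug efflux pump (0.51 ± 0.13), Mmp8, neutrophil collagenase (0.80 ± 0.22), Stfa2l1, a stefin of myeloid cells (1.38 ± 0.39), Gm266 (0.68 ± 0.19) and C630043F03Rik (0.57 ± 0.17). Further probe sets gave 0.01 for Gm266 and 0.36 for C630043F03Rik, and Stfa2l1 was at 0.90 when the muscle score was a covariate. The lowest unadjusted p of all genes, 0.000126, belonged to Hgf, hepatocyte growth factor, at a smaller difference. Hgf was at 5.31, 5.32 and 5.39 with 13C4 and 5.73, 5.64 and 5.65 with 1D11, a tight pair of groups at low intensity that differed by 0.33 ± 0.06. Its 2 further probe sets gave 0.03 and 0.09.

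Cx3cr1, the fractalkine receptor of monocytes and macrophages, led the lower genes. It was at 7.04, 7.34 and 7.60 with 13C4 and at 6.46, 6.54 and 6.36 with 1D11. Every 1D11 tumor was below every 13C4 tumor, and the difference was -0.87 ± 0.16 (-1.23 to -0.51), 1.83-fold lower. The unirradiated estimate was nearly equal, -0.89 ± 0.16, and a second probe set gave -0.06 with radiation.

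Tlr2, a receptor for bacterial lipoproteins, was at 8.03, 7.94 and 8.02 with 13C4 and 7.51, 7.35 and 7.29 with 1D11, a difference of -0.62 ± 0.14, while without radiation it was 0.04 ± 0.14. Ms4a4b, a membrane protein of T cells, was at 8.12, 8.00 and 7.62 with 13C4 and 6.38, 7.49 and 6.64 with 1D11. Its 1D11 replicate 2 came close to the 13C4 tumors, and the difference was -1.07 ± 0.29, 2.11-fold lower. In unirradiated tumors Ms4a4b was higher with 1D11, at 0.94 ± 0.29 (limma adjusted p = 0.213), and a second probe set gave -0.10 in irradiated tumors.

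Aplnr, the apelin receptor of endothelial cells, differed by -0.53 ± 0.12 with radiation and 0.26 ± 0.12 without it. Fcrls, an Fc receptor-like protein of macrophages, differed by -0.66 ± 0.15, and Slamf9, a SLAM family receptor, by -0.78 ± 0.18. Tgfa, a ligand of the EGF receptor and no member of the TGF-beta family, differed by -0.66 ± 0.16, with further probe sets at -0.13 and -0.01. Tgfb1i1, an adaptor protein induced by TGF-beta, differed by -0.59 ± 0.15 with radiation and -0.29 ± 0.15 without it. AI504432 (-0.55 ± 0.11) and Plek2, a pleckstrin family protein (-0.55 ± 0.15), complete the 10. Further probe sets gave -0.26 for Aplnr and -0.20 for AI504432, and Plek2 was at -0.32 when the muscle score was a covariate.

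**Figure D3:**
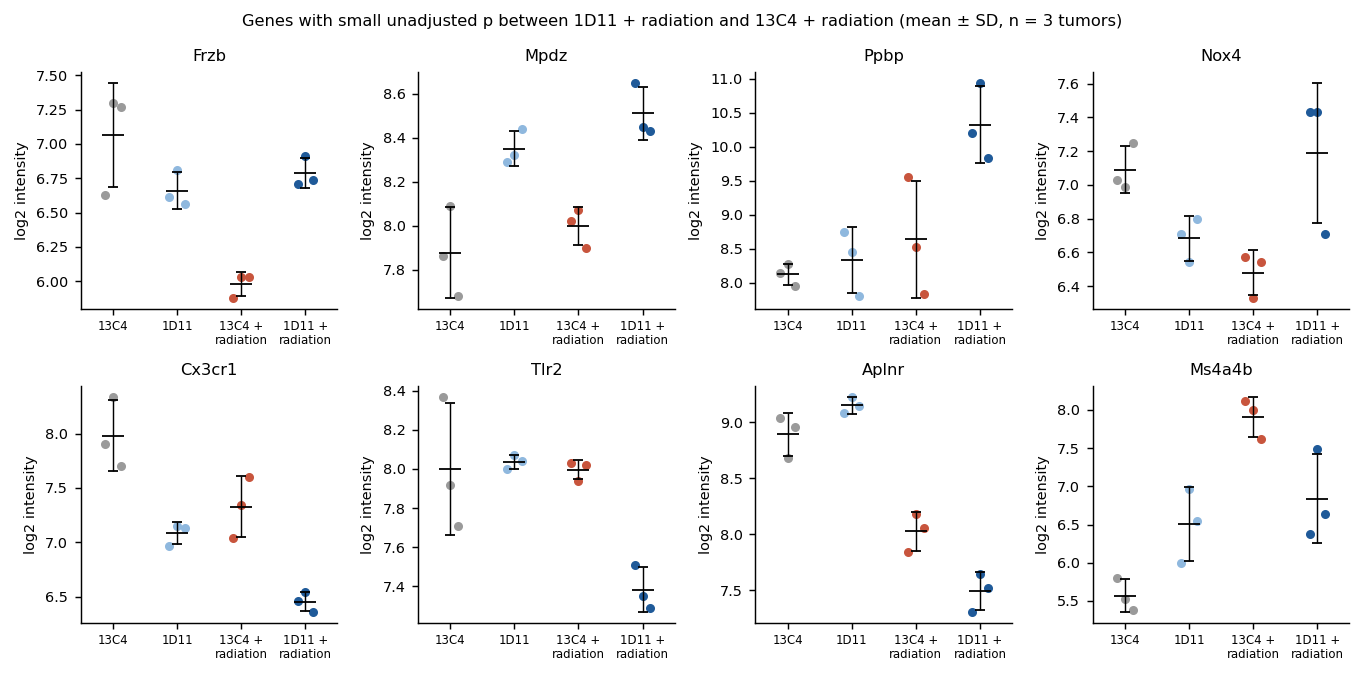
Log2 intensity (y axis) of 8 genes in each of 12 tumors (points) by treatment group (x axis), with the mean ± SD of 3 tumors. The top row holds genes with higher and the bottom row genes with lower estimates in 1D11-irradiated against 13C4-irradiated tumors, as for Frzb (0.81) and Cx3cr1 (-0.87).

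Genes of the interferon response, which are switched on by STAT and IRF factors after type I or type II interferon, stood lower with 1D11 in irradiated tumors. Of 30 tested members 28 had a lower estimate, against 49.2% of all genes. Groups did not overlap for 12, all lower, against 6.05% of all genes. An unadjusted p under 0.05 was found for 9, all lower, against 2.66%, and none passed adjustment. The median was -0.22. This list, like the others, was chosen with earlier results of these data known. List scores were 0.03, 0.16 and 0.13 with 13C4 and -0.21, -0.08 and -0.24 with 1D11, so the 2 groups lay apart.

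The upstream sequences of 3 of these genes are shown because the list is defined by a shared regulation, and the core of the interferon-stimulated response element, which is GAAA, any 2 bases and GAAA again, was searched for on both strands. Among 23 list members with a promoter in the RefSeq table (GRCm38.p6), 10 had a match in the 250 bases before the start, against 3.07% of 10247 tested genes and 3.46% of all 27025 genes. The 3 shown lie at chr19:34583279-34583528 (Ifit3, + strand), chr5:120907526-120907775 (Oas1a, - strand) and chr8:71537473-71537722 (Bst2, - strand). They read 5′ to 3′ on the gene's strand, with the matches in capitals. Ifit3 has 2 separate matches on the opposite strand, and Oas1a and Bst2 have 2 overlapping ones each on their own strand. A match is a run of letters and not a measured binding site. Oas1a and Bst2 were chosen after their values were seen. The other genes with a match were Cxcl10 (-0.59), Ifit1 (-0.55), Igtp (-0.20), Gbp3 (-0.19), Gbp2 (-0.12), Stat2 (-0.06) and Rsad2 (0.03). Whether a match goes with a lower estimate was not tested.
Ifit3: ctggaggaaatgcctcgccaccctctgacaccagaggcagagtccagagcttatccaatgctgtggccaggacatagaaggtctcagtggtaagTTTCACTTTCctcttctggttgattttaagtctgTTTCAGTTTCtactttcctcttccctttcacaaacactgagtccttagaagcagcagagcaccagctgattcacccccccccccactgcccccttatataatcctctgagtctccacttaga
Oas1a: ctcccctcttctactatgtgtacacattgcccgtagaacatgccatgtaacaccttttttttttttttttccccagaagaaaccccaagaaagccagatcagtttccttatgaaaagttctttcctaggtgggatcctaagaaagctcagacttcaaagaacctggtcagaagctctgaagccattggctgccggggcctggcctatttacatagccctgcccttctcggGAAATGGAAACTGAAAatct
Bst2: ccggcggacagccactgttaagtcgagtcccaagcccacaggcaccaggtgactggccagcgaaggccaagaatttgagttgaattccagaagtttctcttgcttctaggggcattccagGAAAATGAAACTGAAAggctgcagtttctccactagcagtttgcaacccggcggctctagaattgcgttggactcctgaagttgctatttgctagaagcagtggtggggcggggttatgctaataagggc

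Ifit3, which binds viral RNA together with Ifit1, was at 7.73, 7.98 and 8.14 with 13C4 and at 7.24, 7.51 and 7.23 with 1D11. The groups did not overlap, and the difference was -0.62 ± 0.22 (unadjusted p = 0.0164), 1.54-fold lower. Oas1a, which senses double-stranded RNA and activates RNase L, was at 9.20, 9.43 and 9.66 with 13C4 and 8.92, 8.83 and 8.98 with 1D11. It differed by -0.52 ± 0.20, again with no overlap. Bst2, the tetherin that holds virus particles on the cell surface, differed by -0.46 ± 0.20, or -0.27 when the muscle score was a covariate.

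Oasl1, a relative of the oligoadenylate synthetases, had the lowest unadjusted p of the list, 0.00147. It was at 7.47, 7.61 and 7.62 with 13C4 and 7.06, 7.31 and 7.06 with 1D11, a difference of -0.42 ± 0.10. Mx1, an antiviral GTPase, was at 5.98, 6.44 and 6.48 with 13C4 and 5.70, 5.81 and 5.35 with 1D11, a difference of -0.68 ± 0.21, or -0.36 when the muscle score was a covariate. Cxcl11, a chemokine for activated T cells, differed by -0.45 ± 0.15, and its 2 groups overlapped. A second Cxcl11 probe set gave 0.15.

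In unirradiated tumors the same 30 genes stood the other way. All 30 had a higher estimate with 1D11, against 62.1% of all genes there, with a median of 0.56, and 18 had an unadjusted p under 0.05, against 9.01%. The difference between the 2 antibody effects, tested as an interaction, was below 0 with an unadjusted p under 0.05 for 21 of the 30, against 5.10% of all genes. Its median was -0.85, and no gene passed adjustment in the interaction (0 of 12735, 0%), where the smallest adjusted p was 0.265 and 952 genes (7.48%) had an unadjusted p under 0.05, with 2.38% above 0 and 5.10% below. For Ifit3 the interaction was -1.34 ± 0.31 (limma adjusted p = 0.38) and for Mx1 -1.20 ± 0.30 (limma adjusted p = 0.381). The interferon scores of the 12 tumors ran from -0.52 to 0.08 in control, 0.22 to 0.47 with 1D11 alone, 0.03 to 0.16 with 13C4 and radiation, and -0.24 to -0.08 with both. Without 13C4-irradiated replicate 3, 26 of 30 were lower in irradiated tumors, 5 with an unadjusted p under 0.05, and these counts were 27 and 3 when the muscle score was a covariate.

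Genes of MHC class II, which present peptides to CD4 T cells, also had lower estimates with 1D11 in irradiated tumors, with more spread. All 8 tested members had a lower estimate, with a median of -0.39, 3 had an unadjusted p under 0.05, against 2.66% of all genes, and groups overlapped for all 8. H2-Aa, an alpha chain, was at 11.31, 11.54 and 10.66 with 13C4 and 10.22, 10.94 and 10.34 with 1D11. Replicate 3 of the 13C4 tumors, the one rich in muscle genes, sat within the 1D11 range, and without it the H2-Aa difference went from -0.67 to -0.93. H2-Ab1 differed by -0.65 ± 0.28, H2-Eb1 by -0.57 ± 0.30 and H2-DMb2, which helps load peptide, by -0.28 ± 0.12. The count of 3 rested on the tumors included. It was 0 without 13C4-irradiated replicate 1 or 2 or without 1D11-irradiated replicate 1 or 3, 1 when the muscle score was a covariate, and 6 without 13C4-irradiated replicate 3. The list median was -0.20 without 13C4-irradiated replicate 2 and -0.62 without replicate 3. In unirradiated tumors 7 of 8 were higher, with a median of 0.56. Of 12 genes of MHC class I and peptide loading, 11 had a lower estimate with a median of -0.11, and none reached an unadjusted p under 0.05.

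Markers of several immune cell types were lower with 1D11 in irradiated tumors. In whole-tumor RNA fewer cells of a type and less RNA per cell cannot be told apart. Of 22 macrophage and monocyte genes 18 had a lower estimate, against 49.2% of all genes, 6 with an unadjusted p under 0.05, against 2.66%, and the median was -0.23. Cx3cr1, given above, is one of these 22. The cell type lists were chosen with earlier results of these data known. Ccr2, the chemokine receptor of recruited monocytes, was at 9.40, 9.60 and 9.99 with 13C4 and 9.05, 9.20 and 8.98 with 1D11. All 1D11 values lay below the 13C4 values, the difference was -0.58 ± 0.20, and without radiation it was 0.49 ± 0.20. C1qa, a complement subunit of macrophages, differed by -0.40 ± 0.15, and Ms4a7, a membrane protein of macrophages, by -0.46 ± 0.18. The scores of the list were 0.05 to 0.16 with 13C4 and -0.24 to 0.20 with 1D11, so that 1D11-irradiated replicate 2 was higher than any 13C4 tumor. The count of 6 became 2 without 13C4-irradiated replicate 2 or 1D11-irradiated replicate 1, 3 without 1D11-irradiated replicate 3, 4 without 13C4-irradiated replicate 3, and 10 without 1D11-irradiated replicate 2. When the muscle score was a covariate it was 2, with Ccr2 at -0.35 and C1qa at -0.26.

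Dendritic cell genes had 10 of 11 lower estimates, 4 with an unadjusted p under 0.05, against 2.66% of all genes, and a median of -0.19. The 4 became 2 without 13C4-irradiated replicate 2. Ccr7, the receptor that guides mature dendritic cells and naive T cells to lymph nodes, was at 6.24, 6.28 and 5.74 with 13C4 and 5.03, 5.50 and 5.53 with 1D11. The groups lay apart, with a difference of -0.73 ± 0.25. Cd209a, a lectin of monocyte-derived dendritic cells, differed by -0.50 ± 0.18, Itgax, which encodes CD11c, by -0.37 ± 0.16, and Cd83, a marker of maturation, by -0.58 ± 0.17. Among T cell genes 5 of 6 tested were lower with a median of -0.22, out of 16 in the list, most of which were too low in intensity or absent. Cd3d and Cd3e, subunits of the T cell receptor complex, differed by -0.36 ± 0.13 and -0.23 ± 0.09 (Cd3e -0.11 when the muscle score was a covariate), while Cd4 differed by -0.10 ± 0.09. Stat4, which transmits interleukin-12 signals, was at 6.24, 6.51 and 6.44 with 13C4 and 5.98, 6.13 and 6.00 with 1D11, a difference of -0.36 ± 0.08.

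Genes of cytotoxic lymphocytes had no common direction, with 3 of 7 higher and 4 lower. Ccl5, a chemokine made by activated T and NK cells, was at 8.49, 8.54 and 8.46 with 13C4 and 7.47, 8.22 and 7.74 with 1D11, and differed by -0.69 ± 0.24. Klrd1, the NK receptor subunit CD94, differed by -0.51 ± 0.28. Both were nearer 0 when the muscle score was a covariate, at -0.34 and -0.23. Prf1, perforin, differed by 0.32 ± 0.20 and Gzmc, a granzyme, by 0.58 ± 0.65, with its 1D11 values from 5.38 to 7.83. With that covariate Prf1 and Gzmc were at 0.64 and 1.49. A second Prf1 probe set gave -0.12. Of 8 mast cell genes 5 were lower, with a median of -0.22, and Cma1, a chymase, differed by -0.57 ± 0.29 with radiation and 1.56 ± 0.29 without it. All 8 mast cell genes were higher with 1D11 in unirradiated tumors, with a median of 1.05. The mast cell transcription factor Gata2 and the stem cell factor receptor Kit differed by 0.15 ± 0.07 and 0.37 ± 0.19 in irradiated tumors. With the covariate Cma1, Gata2 and Kit were at -0.28, 0.09 and 0.07.

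Neutrophil genes had higher estimates with 1D11. All 8 tested of 15 had a higher estimate with 1D11 in irradiated tumors, with a median of 0.50. An unadjusted p under 0.05 was found for 3, against 2.74% of all genes, and groups did not overlap for 4, against 7.26%. S100a9, a subunit of the calprotectin complex of neutrophils, was at 10.59, 9.83 and 9.35 with 13C4 and 11.29, 10.99 and 10.91 with 1D11. Its partner S100a8 was at 10.80, 10.05 and 9.48 and at 11.45, 11.06 and 10.96. For both, every 1D11 tumor was above every 13C4 tumor, but the 13C4 tumors were spread over more than 1 log2 unit, and the differences were 1.14 ± 0.51 and 1.05 ± 0.51. Cxcr2, the receptor of neutrophil chemokines, differed by 0.41 ± 0.18, and by 0.00 ± 0.18 without radiation. List scores were 0.06, -0.30 and -0.38 with 13C4 and 0.40, 0.40 and 0.35 with 1D11. All 8 stayed above 0 with any 1 irradiated tumor left out. The count of 3 became 1 without 13C4-irradiated replicate 2 or 3 or without any 1D11-irradiated replicate. When the muscle score was a covariate S100a9 and S100a8 were at 0.60 and 0.52.

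Inflammatory cytokines, among them the chemokines that call in neutrophils, were higher for 17 of 19 tested genes, against 50.8% of all genes, with a median of 0.33 and 3 at an unadjusted p under 0.05, against 2.74%. The 3 became 1 without 13C4-irradiated replicate 2 or 3 or 1D11-irradiated replicate 1. Ccl3, a chemokine of macrophages, was at 8.41, 7.91 and 7.35 with 13C4 and 8.79, 8.85 and 8.78 with 1D11. The 1D11 tumors were nearly equal and the 13C4 tumors were scattered below them, with a difference of 0.92 ± 0.31. Il33, an alarmin, was at 12.05, 11.35 and 11.57 and at 12.27, 12.84 and 12.15, a difference of 0.76 ± 0.33. Csf2, which encodes GM-CSF, differed by 0.33 ± 0.12, and Cxcl3, a neutrophil chemokine, by 1.30 ± 0.72. The list median depended on the 13C4 tumors included, and was 0.09 without replicate 3, 0.67 without replicate 1 and -0.11 when the muscle score was a covariate, where 8 of 19 were higher and Ccl3 and Il33 were at 0.57 and 0.42.

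**Figure D4:**
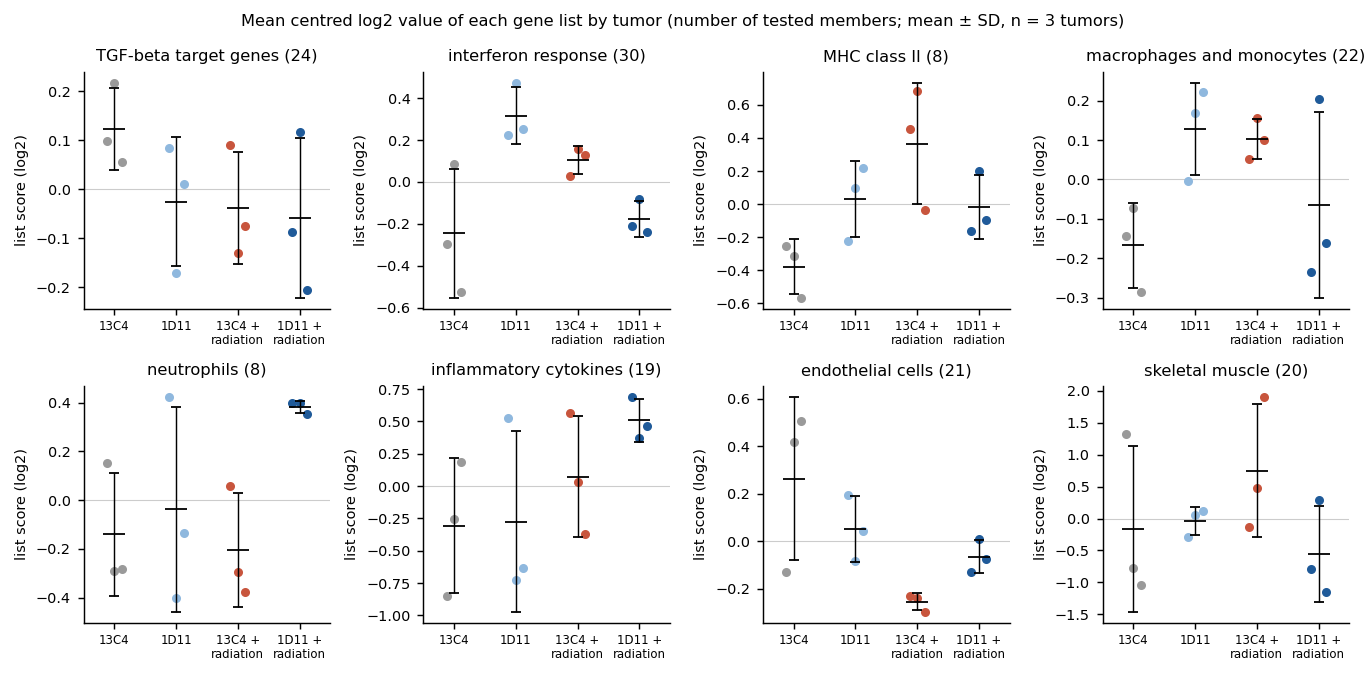
List score, the mean centred log2 value of the tested members (y axis), in each tumor (points) by treatment group (x axis) for 8 gene lists, with the mean ± SD of 3 tumors. Interferon scores are -0.24 to -0.08 in 1D11-irradiated and 0.03 to 0.16 in 13C4-irradiated tumors, and the muscle score is highest, 1.91, in 13C4-irradiated replicate 3.

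Endothelial genes were higher for 17 of 21 tested members with 1D11 in irradiated tumors, with a median of 0.21. Groups did not overlap for 10 higher genes, against 7.26% of all genes, and 2 of these had an unadjusted p under 0.05, against 2.74%. The 2 became 1 without 13C4-irradiated replicate 3 or 1D11-irradiated replicate 1 and 0 without 1D11-irradiated replicate 2. Nos3, the endothelial nitric oxide synthase, was at 6.83, 6.82 and 6.81 with 13C4 and 6.99, 6.99 and 6.99 with 1D11, a difference of 0.17 ± 0.08. Egfl7, a secreted protein of vessels, was at 8.59, 8.59 and 8.46 with 13C4 and 8.79, 8.89 and 8.72 with 1D11, a difference of 0.25 ± 0.09. Flt1, a VEGF receptor, differed by 0.29 ± 0.13. Aplnr, given above, was the member with the lowest unadjusted p and was lower. Without radiation 18 of 21 endothelial estimates lay below 0, against 37.9% of all genes, with a median of -0.25. The irradiated median was 0.12 without 13C4-irradiated replicate 3 and -0.004 when the muscle score was a covariate, with 10 of 21 higher and Nos3, Egfl7 and Flt1 at 0.08, 0.15 and 0.18.

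Matrix and fibroblast genes, the classical outputs of TGF-beta, had counts of higher and lower estimates that changed with the tumors included. Among collagens the lower ones were never outnumbered with any 1 irradiated tumor left out. Of 18 collagens, 12 had a lower estimate with a median of -0.12, which was also the median without radiation. Col15a1, a basement membrane collagen, was at 5.94, 5.96 and 6.15 with 13C4 and 5.86, 5.59 and 5.50 with 1D11, a difference of -0.37 ± 0.12 (unadjusted p = 0.00902), and was the single collagen with an unadjusted p under 0.05. Without 1D11-irradiated replicate 2, 15 of 18 collagens were lower, 8 with an unadjusted p under 0.05, and without 13C4-irradiated replicate 1 there were 2 such genes. Col1a2, a chain of fibrillar collagen I, was at 11.39, 11.33 and 12.40 with 13C4 and 10.62, 12.36 and 10.30 with 1D11. In each group 1 tumor was high, and the difference of -0.61 ± 0.46 was smaller than that spread. Col14a1 differed by -0.85 ± 0.45 and Col18a1, the source of endostatin, by 0.15 ± 0.09. When the muscle score was a covariate, 8 of 18 collagens were lower, and Col1a2 and Col14a1 were at -0.15 and -0.19. An unadjusted p under 0.05 was then found for 2 higher and 0 lower collagens. Of 20 other matrix and crosslinking genes 11 were lower, none with an unadjusted p under 0.05, and without 1D11-irradiated replicate 2 these counts were 15 and 6. Of 19 fibroblast genes 11 were higher and 8 lower, with a median of 0.01, and none had an unadjusted p under 0.05. Without 1D11-irradiated replicate 2, 12 of the 19 were lower, 4 of them with an unadjusted p under 0.05. Without 13C4-irradiated replicate 3 there were 3 higher and 1 lower at that p. Over all 12735 genes, in either direction, 619 reached that p without 1D11-irradiated replicate 2. The number was 584 without 13C4-irradiated replicate 3 and 847 without 13C4-irradiated replicate 1. Of 19 matrix proteases and their inhibitors 14 were higher, but 7 without 1D11-irradiated replicate 2, with Adamts4, an aggrecanase, at 0.46 ± 0.18 (0.20 when the muscle score was a covariate) and Timp3, a tissue inhibitor of metalloproteases, at -0.50 ± 0.23.

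Genes of the DNA damage response differed little between the irradiated groups. Cdkn1a, the p21 cell cycle inhibitor and a p53 target, was at 12.58, 12.52 and 12.54 with 13C4 and 12.52, 12.51 and 12.51 with 1D11, so that all 6 tumors lay close together. Mdm2, the p53 ubiquitin ligase, was at 10.94, 10.83 and 10.88 and at 10.92, 10.80 and 10.89. The differences were -0.04 ± 0.27 and -0.02 ± 0.12, and the error estimate of Cdkn1a includes control replicate 1, at 10.88 against 12.11 and 12.28 in its group. Of 26 p53 targets 14 were higher and 12 lower, with a median of 0.006, and 7 were higher, with a median of -0.14, when the muscle score was a covariate. Cdkn1a and Mdm2 were then at -0.43 and -0.17. The covariate was fitted over all 12 arrays, control replicate 1 among them, which had a muscle score of 1.32. The part of that array in the covariate values was not tested. Tnfrsf10b, the death receptor for TRAIL, was the one with an unadjusted p under 0.05, at 6.00, 5.80 and 5.83 with 13C4 and 5.57, 5.60 and 5.51 with 1D11, a difference of -0.32 ± 0.08. Bbc3 (PUMA) differed by -0.17 ± 0.10, Sesn1, a stress-induced sestrin, by 0.18 ± 0.11, and Pidd1, a death domain protein, by 0.12 ± 0.08.

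Of 32 genes of DNA damage signalling and repair 14 were higher and 18 lower, with a median of -0.008, and 22 were higher without 1D11-irradiated replicate 2. Xrcc5, the Ku80 subunit of end joining, was at 8.51, 8.73 and 8.84 with 13C4 and at 8.93, 9.06 and 8.90 with 1D11, without overlap, and its difference of 0.27 ± 0.10 equalled that without radiation. Rad50, of the complex that senses DNA breaks, differed by 0.14 ± 0.06, Prkdc, the catalytic subunit of DNA-PK, by 0.16 ± 0.08, and Atr, a checkpoint kinase, by 0.15 ± 0.08. Medians were -0.007 over 29 mitosis genes, 13 of them higher, and -0.01 over 28 DNA replication genes, 11 of them higher. Without 1D11-irradiated replicate 2, 20 mitosis and 19 replication genes were higher. When the muscle score was a covariate these counts were 24 and 21, with medians of 0.09 and 0.04.

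Chaperones and genes of the unfolded protein response were lower for 23 of 24 members with 1D11 in irradiated tumors. Groups did not overlap for 8, all lower, against 6.05% of all genes, 3 had an unadjusted p under 0.05, against 2.66%, and the median was -0.15, against -0.07 without radiation. Hsph1, a cytosolic heat shock protein, was at 11.48, 11.50 and 11.77 with 13C4 and 11.25, 10.68 and 11.05 with 1D11, a difference of -0.59 ± 0.25. Creld2, an endoplasmic reticulum protein induced by misfolding, differed by -0.39 ± 0.17, Herpud1, of the degradation pathway there, by -0.26 ± 0.11, and Calr, calreticulin, by -0.23 ± 0.11. List scores were 0.07 to 0.10 with 13C4 and -0.20 to -0.02 with 1D11. The count of 3 became 1 without 13C4-irradiated or 1D11-irradiated replicate 3, 0 without replicate 2 of either group, and 5 without 1D11-irradiated replicate 1. When the muscle score was a covariate Hsph1 and Creld2 were at -0.31 and -0.14.

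Guidance and growth factor genes included 5 higher and 1 lower at an unadjusted p under 0.05, of 26 tested, among them Frzb and Hgf. Over all genes these shares were 2.74% and 2.66%. The list was chosen with earlier results of these data known, so setting its counts beside these shares is no test. The 5 became 2 without 1D11-irradiated replicate 2 and 3 without 1D11-irradiated replicate 3 or 13C4-irradiated replicate 2 or 3. The 1 became 2 without 13C4-irradiated replicate 3. When the muscle score was a covariate the counts were 2 higher and 0 lower. Sema3a, a semaphorin that repels axons and vessels, was at 9.65, 9.47 and 9.72 with 13C4 and 9.86, 10.24 and 9.90 with 1D11, a difference of 0.38 ± 0.14. Nrp2, a semaphorin and VEGF co-receptor, was at 10.13, 10.20 and 10.33 and at 9.84, 9.67 and 10.01, a difference of -0.38 ± 0.13. Neither pair of groups overlapped. Further probe sets agreed in sign for both genes, with 0.44 and 0.52 for Sema3a and -0.45, -0.36 and -0.22 for Nrp2.

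Single genes in the interaction, the antibody difference with radiation minus that without, are given as values because none passed. Stat4 had the lowest unadjusted p, 4.65e-05, at -0.75 ± 0.12 (limma adjusted p = 0.265), made up of -0.36 ± 0.08 with radiation and 0.39 ± 0.08 without it. Fcgr1, the high-affinity IgG receptor, was at -1.20 ± 0.19, Cd83 at -1.45 ± 0.24, Mcpt4, a mast cell protease, at -1.96 ± 0.34 and Slco3a1, an anion transporter, at -0.53 ± 0.10. For Mcpt4 and Fcgr1 the larger share lay in unirradiated tumors, where 1D11 differed from control by 1.54 ± 0.24 and 0.86 ± 0.13 (limma adjusted p = 0.0811 for both). Above 0 stood Frzb at 1.21 ± 0.22, Hgf at 0.47 ± 0.08, Rnf144a, a ubiquitin ligase, at 0.76 ± 0.14, Rhd at 0.44 ± 0.09 and Plcxd1 at 0.68 ± 0.15. The unirradiated part was also the larger for Cd83 (0.86, against -0.58 with radiation) and Plcxd1 (-0.51, against 0.16). For Stat4, Slco3a1, Rnf144a and Rhd both parts were of near equal size, and for Frzb and Hgf the irradiated part was the larger.

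Over all 12735 genes the antibody difference with radiation and that without correlated at Pearson r = 0.0249 and Spearman rho = 0.157, and 43.1% of genes had opposite signs. This is a description across genes, which are not independent, and all 12 arrays share the same probe sets.

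**Figure D5:**
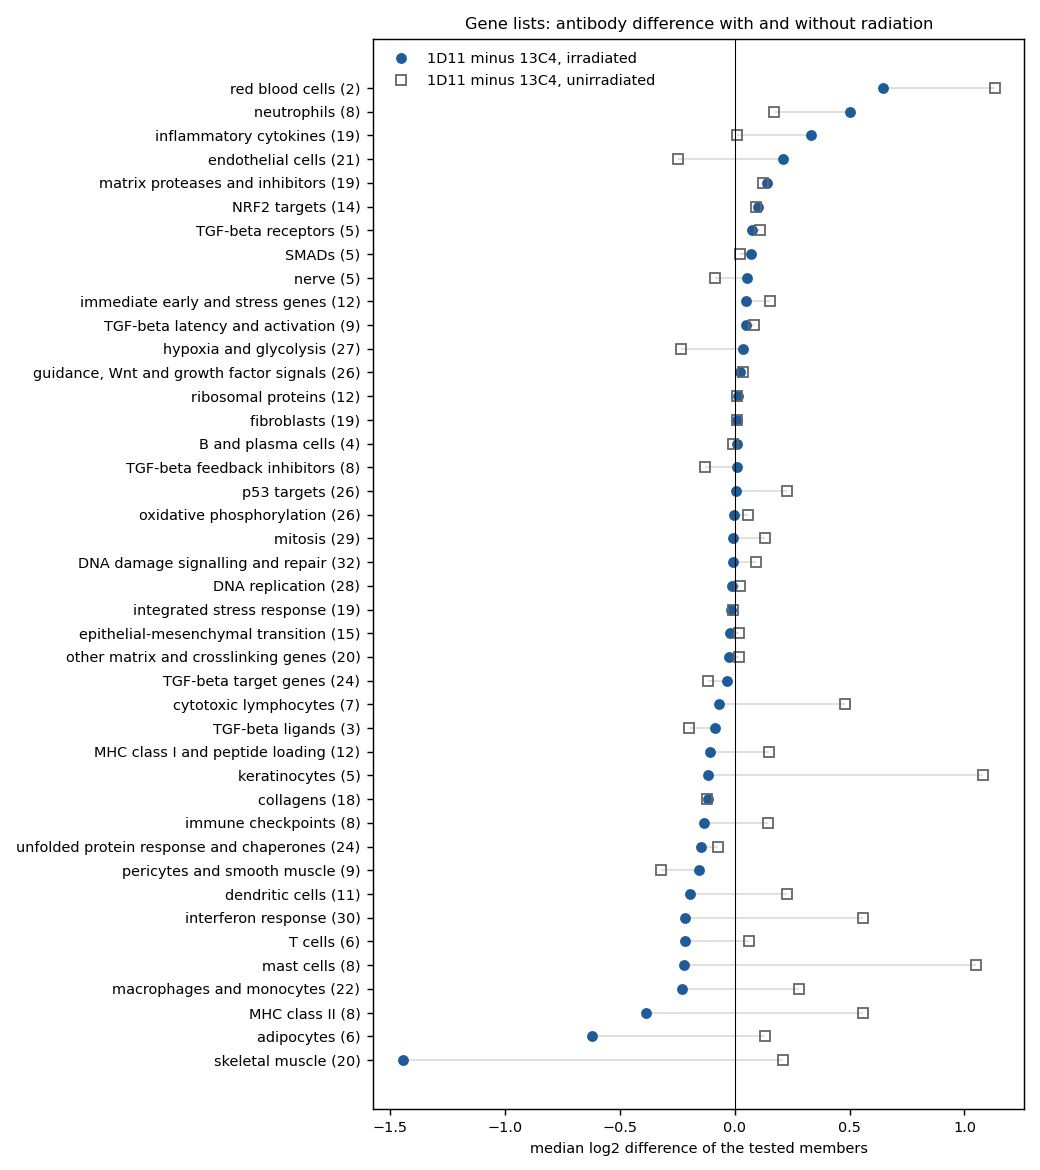
Median log2 difference of the tested members (x axis) of each gene list (y axis, with the number tested) for 1D11 against 13C4 with radiation (filled circles) and without it (open squares). Interferon and MHC class II medians are -0.22 and -0.39 with radiation and 0.56 and 0.56 without it, and skeletal muscle is lowest at -1.45.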

How the data were processed

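Whole-tumor RNA was hybridized to 12 one-color Affymetrix arrays. The deposited values are probe set intensity on a linear scale. The software by which the authors normalized them is not given in the sources used here. Array medians of 62.3 to 66.1 show values already scaled between arrays, and log2 was taken without a further step. Of 45101 probe sets, 34945 carried a single gene symbol in the platform annotation, 932 several and 9160 none, and 64 were controls. Each of 18193 genes was represented by its probe set of highest mean. The lowest 30 percent of gene means, below log2 5.37, were left out, which kept 12735 genes.

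R 4.3.3 and limma 3.58.1 fitted 1 mean per group over 12 arrays (lmFit, eBayes, 8 residual and 3.11 prior degrees of freedom), with two-sided tests, Benjamini-Hochberg adjustment and calls at an adjusted p under 0.05. Intervals of 95% use the same model. Precision is limited by having 3 arrays per group. Named are, per direction, the 10 genes of lowest p among differences of at least 0.5, up to 4 members of lowest p per described list, 8 genes always given (Tgfb1, Tgfb2, Tgfb3, Tgfbr1, Tgfbr2, Smad7, Cdkn1a, Mdm2; 1 more in the rule is not reported here) and 5 per direction of the interaction. Cadm1, Ccl6, Oas1a, Bst2, Slamf7 and P2ry10 were named after their values were seen. The members and gene lists were chosen with earlier results of these data known, so counts within lists describe these data and are no test. Same-numbered arrays of the irradiated groups correlated at 0.00924, -0.0344 and -0.233 after removal of group means, so numbers were not used as pairs. Alternatives changed the samples fitted, probe set rule, filter, normalization, offset, weights, prior, block, covariates and arrays included.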

Additional observations from a re-analysis of the deposited data

How the results depend on the processing

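The comparison of irradiated tumors had 0 called genes in limma, and 688 at an unadjusted p under 0.05, and stayed at 0 under every alternative but 3. Array weights gave 6 (Cd83, Cx3cr1, Slamf7 and Tlr2 lower, Frzb and Hgf higher). Leaving out control replicate 1 gave 1 (Frzb, adjusted p = 0.0259). Leaving out that array and 13C4-irradiated replicate 3 together gave 1 (P2ry10). Leaving out 1 array at a time gave 0 to 1 here, 0 to 21 in the interaction and 0 to 21 for 1D11 against control. In the interaction (0 called, 952 at an unadjusted p under 0.05) array weights gave 122, with 104 lower, control replicate 1 left out gave 21, 1D11 replicate 2 or 13C4-irradiated replicate 3 left out gave 2 each, 1D11-irradiated replicate 3 left out gave 1, and both arrays left out gave 20. A fit on 2 groups alone gives no interaction. For 1D11 against control (2 called) only those 2 groups, the mean of probe sets or the keratinocyte covariate gave 0, no filter 4, quantile normalization 5, array weights or the muscle covariate 13, control replicate 1 or 2 left out 21, and both arrays left out 59. With the replicate number as a block the counts were 0 in all 3 comparisons. After removal of group means, 3 of 18 same-numbered pairs correlated over 0.1. Differently numbered pairs were not compared, so whether the numbers mark pairs or a batch was not tested. Array weights were lowest for control replicate 1 (0.297) and 13C4-irradiated replicate 3 (0.359).

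Among 117 named genes, 13 of 2755 values turned sign, in 6 genes. With 1 array left out Tgfb1 ran from -0.167 to 0.002 (without 13C4-irradiated replicate 1). Tgfb2 was 0.076 by the mean of probe sets, 0.235 with the muscle covariate and -0.167 to 0.042 with 1 array left out (above 0 without 1D11-irradiated replicate 3). Tgfb3 ran from -0.077 to 0.27, below 0 without 13C4-irradiated replicate 1 or 2. Tgfbr1 was -0.006 with array weights and ran from -0.032, without 1D11-irradiated replicate 2, to 0.148. Mdm2 was 0.099 by the mean of probe sets and 0.017 under array weights, and from -0.044 to 0.016 with 1 array left out, above 0 without 13C4-irradiated replicate 1 or 1D11-irradiated replicate 2. Bambi ran from -0.004, without 1D11-irradiated replicate 2, to 0.175. The cause was not tested. The muscle covariate for list medians and counts, and the list counts without each irradiated tumor, were chosen after seeing the data.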

Other observations

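Genes of oxygen supply and antioxidant defence were not described above. Of 14 NRF2 targets, which answer oxidative stress, 13 had a higher estimate with 1D11 in irradiated tumors, with a median of 0.10, none at an unadjusted p under 0.05, and the median without radiation was 0.09. Without 1D11-irradiated replicate 2, 9 of the 14 were higher. Of 27 genes of hypoxia and glycolysis 17 were higher, with a median of 0.04, against -0.23 without radiation, where 7 were lower at an unadjusted p under 0.05 against 5.12% of all genes. When the muscle score was a covariate, 2 of the 27 were higher and 25 lower in irradiated tumors, 3 of them at an unadjusted p under 0.05, with a median of -0.09. That fit included control replicate 1, whose hypoxia score was -0.36 against 0.13 and 0.06 in its group. The part of that array in these counts was not tested. Over 26 genes of oxidative phosphorylation the median was -0.004, with all differences between -0.07 and 0.14. Of 5 keratinocyte genes, markers of skin that could be taken with a subcutaneous tumor, all were slightly lower in irradiated tumors, with a median of -0.12, and list scores there lay between -0.43 and -0.24. With 1D11 alone that score reached 2.31 in replicate 3.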
